A study of Mus musculus with 3 samples.

Results

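The fibroblast growth factor (FGF) ligands and receptors described here are 10 genes, taken by symbol from the gene tables of the series and not by their values, of 17633 genes with a read in any library. They comprise 6 ligands, *Fgf3*, *Fgf4*, *Fgf5*, *Fgf8*, *Fgf10* and *Fgf15*, and the 4 receptor tyrosine kinases *Fgfr1*, *Fgfr2*, *Fgfr3* and *Fgfr4*. RNA was sequenced from the endoderm, the mesoderm and the epiblast of ICR mouse embryos at E7.5. The layers were separated by hand after enzyme digestion of the embryonic region, and the layer called epiblast holds both the neuroectoderm and the primitive streak. Each layer is 1 library of RNA pooled over many embryos, so there is no replicate check of any difference below. The libraries hold 41.7 M, 40.8 M and 42.7 M reads on genes for endoderm, mesoderm and epiblast.

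FGF ligands are secreted proteins that bind receptor tyrosine kinases together with heparan sulfate, and the activated receptor signals through docking proteins to the Ras and ERK pathway. In the gastrulating embryo this signalling is known to be needed for cells to leave the primitive streak and to form mesoderm. A few members of the family, among them *Fgf15*, bind heparan sulfate weakly and act on distant cells through a Klotho co-receptor.

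All 10 genes had reads in every library, and 8 of them passed an RPKM (reads per gene length and library size) of 5 in at least 1 layer. *Fgf4* and *Fgf10* stayed below that level in all 3 layers. The mesoderm and epiblast libraries shared *Fgf8*, *Fgf15* and *Fgfr1* at levels well above endoderm. The endoderm library was set apart by *Fgfr4*, which stayed below RPKM 0.4 elsewhere. *Fgf3* was highest in mesoderm, and *Fgf5* was high in endoderm and epiblast but low in mesoderm.

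*Fgf3*, *Fgf4* and *Fgf15* lie in a row on the plus strand of chromosome 7, and *Fgf5* was the ligand with its lowest level in mesoderm. The reference sequence upstream of *Fgf3*, *Fgf4* and *Fgf5* is shown because the first pair are direct neighbours with different highest layers and the last differs from the other ligands. Each sequence is from RefSeq on GRCm38.p6, 5′ to 3′ on the plus strand, and ends at the base before the RefSeq start site, except that the last 17 bases of the *Fgf3* window are left out as they are untranslated region in GENCODE. In GENCODE the *Fgf3* and *Fgf4* windows lie within the gene, in the first intron of a longer transcript model that starts further upstream. *Fgf3* is shown at chr7:144838362-144838594, *Fgf4* at chr7:144861136-144861385 and *Fgf5* at chr5:98253934-98254183. Capitals mark the motif matches described next, on either strand.
Fgf3: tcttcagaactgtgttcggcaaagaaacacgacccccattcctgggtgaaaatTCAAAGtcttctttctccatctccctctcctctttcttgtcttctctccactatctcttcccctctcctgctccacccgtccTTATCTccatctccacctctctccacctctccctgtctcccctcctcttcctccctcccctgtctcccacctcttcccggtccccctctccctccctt
Fgf4: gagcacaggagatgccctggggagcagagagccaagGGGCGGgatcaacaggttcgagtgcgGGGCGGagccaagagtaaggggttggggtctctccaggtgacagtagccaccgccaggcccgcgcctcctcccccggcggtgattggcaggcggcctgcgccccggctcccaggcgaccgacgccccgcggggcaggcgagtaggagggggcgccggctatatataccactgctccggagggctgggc
Fgf5: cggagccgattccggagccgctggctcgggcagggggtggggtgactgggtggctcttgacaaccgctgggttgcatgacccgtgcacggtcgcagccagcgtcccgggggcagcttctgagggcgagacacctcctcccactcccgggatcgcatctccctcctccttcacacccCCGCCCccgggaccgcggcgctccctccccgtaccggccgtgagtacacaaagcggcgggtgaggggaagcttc

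The 250 bases before the start differed in base composition between the neighbours. G and C made up 55.2% of the *Fgf3* window, with 4 CpG, against 71.2% and 21 CpG for *Fgf4* and 70.8% and 24 CpG for *Fgf5*. The median over 32851 such windows of all genes was 52.4% with 6 CpG, and over the 8 windows found for 7 of the genes described here it was 65.4% with 17 CpG. Letters of 8 motifs were searched on both strands. The *Fgf3* window held CTTTGA, the core bound by TCF and LEF factors, starting 197 bases before the start, and AGATAA, the core bound by GATA factors, starting 115 bases before it. These letters are in 13.8% and 9.99% of all windows. The *Fgf4* window held the GC box GGGCGG at both 214 and 188 bases before the start, and the *Fgf5* window held it 74 bases before. The GC box is in 32.7% of all windows. In the *Fgfr4* window, whose bases near the start are untranslated region in GENCODE and are not printed, the GC box was found 62 and 46 bases before the RefSeq start. The other motifs were the TATA box TATAAA (12.4% of windows), the octamer ATTTGCAT (1.60%) and the T half-site TCACACCT (1.12%). The last were the forkhead core TGTTTAC (3.17%) and the HNF4 core CAAAGTCCA (0.384%). None of these exact letters was in the windows of *Fgf3*, *Fgf4*, *Fgf5* or *Fgfr4*. Variants of a motif were not searched, so the letters TATATATA near the end of the *Fgf4* window were not counted. The forkhead core was found in the *Fgf10* window, 11 bases before the start. A match of letters is a description of the reference strain and not a binding site, and the samples were of another strain.

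Genes were called with RPKM>5 in at least 1 of the 2 libraries, Fold Change>2 and FDR<0.001 from an exact test on the reads. This test compares 2 libraries and not the layers as conditions, because it holds only the noise of counting reads. Intervals below are exact 95% intervals and cover counting error only. Between endoderm and mesoderm, 6 of the 10 genes were called, 2 higher in endoderm (*Fgf5*, *Fgfr4*) and 4 higher in mesoderm (*Fgf3*, *Fgf8*, *Fgf15*, *Fgfr1*). Of all genes with a read in either library, 7.44% were called higher in endoderm and 4.41% higher in mesoderm. Of the genes with RPKM>5 in the pair, 23.0% were called in either direction, against 6 of the 8 genes described here that passed that level.

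Between endoderm and epiblast, 5 of the 10 genes were called, 2 higher in endoderm (*Fgfr3*, *Fgfr4*) and 3 higher in epiblast (*Fgf8*, *Fgf15*, *Fgfr1*), beside 8.02% and 4.58% of all genes with a read. In this pair 7 of the 10 genes passed RPKM>5, and 24.6% of all genes that did so were called. Between mesoderm and epiblast, 3 of the 10 genes were called, 2 higher in mesoderm (*Fgf3*, *Fgfr3*) and 1 higher in epiblast (*Fgf5*), beside 2.58% and 2.45% of all genes with a read. Here too 7 genes passed RPKM>5, and 10.3% of all such genes were called. The median log2 ratio of the 10 genes was -1.64 for endoderm over mesoderm, -1.19 for endoderm over epiblast and 0.44 for mesoderm over epiblast, where the medians of all genes tested were -0.03, -0.02 and 0.04. The 3 pairs share libraries, so their counts are not independent.

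**Figure D1:**
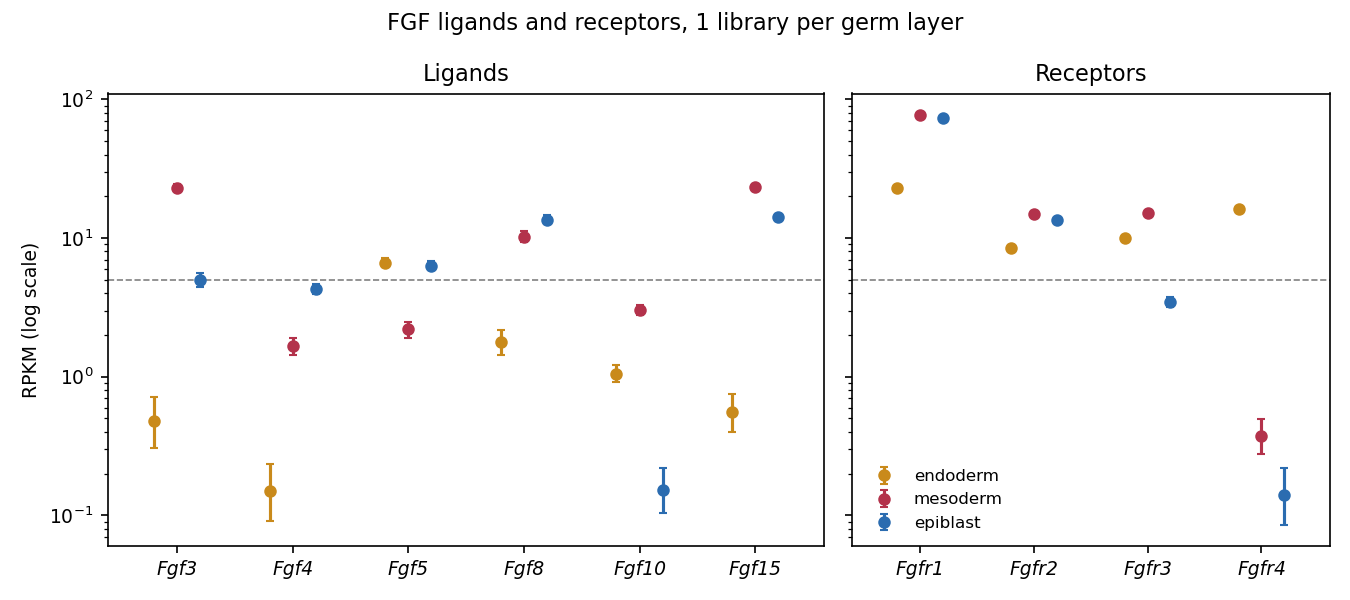
RPKM on a log axis of the 6 FGF ligands (left) and the 4 receptors (right) in endoderm, mesoderm and epiblast, 1 library each; bars are exact Poisson 95% intervals from the reads and the dashed line is RPKM 5. *Fgf15* and *Fgf3* reach 23.3 and 23.1 in mesoderm but stay below 0.6 in endoderm, and *Fgfr4* reaches 16.2 in endoderm but stays below 0.4 elsewhere.

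Among the ligands, *Fgf8* is the one known to be required for cells to migrate away from the primitive streak. Its RPKM was 1.77 in endoderm (93 reads), 10.3 in mesoderm (528 reads) and 13.5 in epiblast (729 reads). Against endoderm it was 5.79-fold higher in mesoderm (interval 4.64 to 7.30) and 7.65-fold higher in epiblast (6.15 to 9.59), and both differences were called. Epiblast exceeded mesoderm 1.32-fold (1.18 to 1.48), which is past counting error but not a call. *Fgf8* lies on chromosome 19, 45736798-45742915, on the minus strand.

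*Fgf4*, a signal of the early epiblast, had its highest level in the same library. Its RPKM was 0.151 in endoderm (19 reads), 1.66 in mesoderm (206 reads) and 4.32 in epiblast (559 reads). The ratio of epiblast to endoderm was 28.7 (18.2 to 48.0) and that of epiblast to mesoderm was 2.60 (2.21 to 3.06). No pair was called, because the gene did not reach RPKM>5, and its reads covered 42.8% of the gene length in endoderm against 94.3% in epiblast.

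*Fgf5* is a classical marker of the primed epiblast and in the adult limits hair growth. It was measured at RPKM 6.64 in endoderm (692 reads), 2.19 in mesoderm (224 reads) and 6.32 in epiblast (675 reads). Endoderm was 3.03-fold above mesoderm (2.60 to 3.54) and epiblast 2.88-fold above mesoderm (2.47 to 3.37), and both were called. Endoderm and epiblast did not differ beyond counting error, with a ratio of 1.05 (0.944 to 1.17). The reads covered 98.9% of the gene length in endoderm and 97.4% in epiblast. In the endoderm library the epiblast gene *Sox2* had 1.44% of its epiblast level and the 5 primitive streak markers had 4.64% (*Fst*) to 65.6% (*Eomes*), and the part of epiblast cells in the endoderm level of *Fgf5* was not tested. *Fgf5* lies on chromosome 5, 98254184-98277030.

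*Fgf3*, later needed for the inner ear and the tail, was high in mesoderm and below RPKM 0.5 in endoderm. Its RPKM was 0.476 in endoderm (24 reads), 23.1 in mesoderm (1144 reads) and 4.99 in epiblast (258 reads). Mesoderm was 48.6-fold above endoderm (32.5 to 76.2) and 4.64-fold above epiblast (4.05 to 5.33), and both were called. Epiblast was 10.5-fold above endoderm (6.89 to 16.7), but the pair was not called because the epiblast level fell just short of 5.

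*Fgf15*, in the adult a gut hormone that restrains bile acid synthesis, was the ligand with the highest RPKM in both mesoderm and epiblast. It was measured at 0.557 in endoderm (42 reads), 23.3 in mesoderm (1723 reads) and 14.1 in epiblast (1088 reads). Mesoderm was 41.8-fold (30.8 to 58.3) and epiblast 25.3-fold (18.6 to 35.3) above endoderm, and both were called. Mesoderm exceeded epiblast 1.66-fold (1.53 to 1.79), past counting error and below the fold criterion. In mesoderm the intervals of *Fgf15* (22.2 to 24.4) and *Fgf3* (21.8 to 24.5) overlapped, and in epiblast those of *Fgf15* (13.3 to 14.9) and *Fgf8* (12.6 to 14.6) did so too.

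*Fgf10*, best known for the outgrowth of limb and lung, was low everywhere. Its RPKM was 1.05 in endoderm (200 reads), 3.02 in mesoderm (564 reads) and 0.154 in epiblast (30 reads). The ratio of mesoderm to epiblast was 19.7 (13.6 to 29.4), that of endoderm to epiblast 6.83 (4.64 to 10.4) and that of mesoderm to endoderm 2.88 (2.44 to 3.40), with no call. *Fgf10* was thus the ligand lowest in epiblast, whereas *Fgf3*, *Fgf4*, *Fgf8* and *Fgf15* were lowest in endoderm. It lies on chromosome 13, 118669791-118792115.

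Together the 6 ligands summed to RPKM 63.6 in mesoderm and 43.4 in epiblast, against 10.6 in endoderm. In endoderm *Fgf5* made up 62.4% of the sum and *Fgf8* 16.6%. In mesoderm *Fgf15* gave 36.7%, *Fgf3* 36.4% and *Fgf8* 16.1%. In epiblast 32.4% came from *Fgf15*, 31.2% from *Fgf8*, 14.6% from *Fgf5*, 11.5% from *Fgf3* and 9.95% from *Fgf4*. In such bulk libraries, fewer cells that express a gene and less RNA per cell cannot be told apart.

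**Figure D2:**
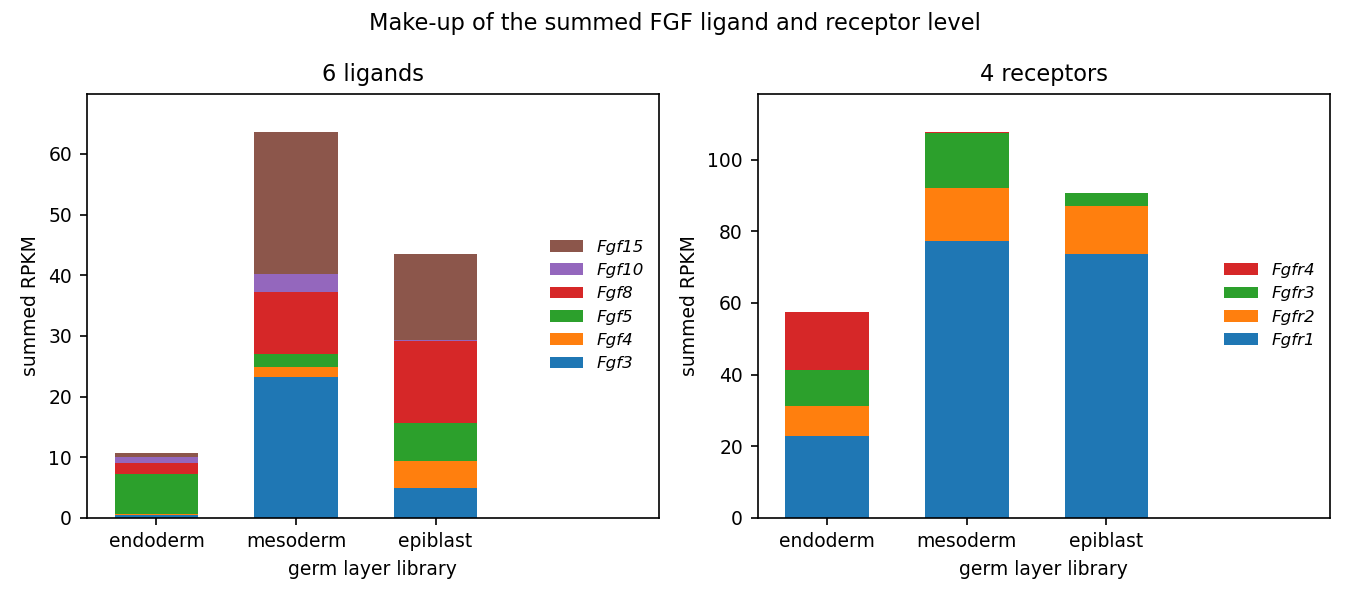
Stacked bars of RPKM for the 6 ligands (left) and the 4 receptors (right) in each germ layer library, 1 library each. The ligand bar is 10.6 in endoderm, mostly *Fgf5*, against 63.6 in mesoderm and 43.4 in epiblast, and *Fgfr4* makes up 28.2% of the receptor bar in endoderm and under 0.4% of the other bars.

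The genes of *Fgf3*, *Fgf4* and *Fgf15* span 62.9 kb of chromosome 7 in GENCODE M21 on GRCm38, followed by the cell cycle gene *Ccnd1*. *Fgf3* occupies 144838083-144844436, *Fgf4* 144847367-144865243 and *Fgf15* 144896531-144900953, all on the plus strand, with *Ccnd1* at 144929931-144939925 on the minus strand. The gaps between neighbours in GENCODE are 2.93, 31.3 and 29.0 kb. The first gap rests on the longer *Fgf4* model, and the RefSeq start of *Fgf4* lies further from *Fgf3*, after base 144861385. All 4 genes had their lowest level in endoderm. *Ccnd1* had RPKM 98.3 in mesoderm, 74.6 in epiblast and 25.5 in endoderm, so that mesoderm was highest for *Fgf3*, *Fgf15* and *Ccnd1*, and epiblast for *Fgf4*.

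Among the receptors, *Fgfr1*, the receptor known to be essential for mesoderm formation at the streak, had the highest RPKM in each layer. Its level was 22.8 in endoderm (4752 reads), 77.1 in mesoderm (15782 reads) and 73.5 in epiblast (15729 reads). Mesoderm was 3.39-fold (3.28 to 3.50) and epiblast 3.23-fold (3.13 to 3.34) above endoderm, and both were called. Mesoderm and epiblast differed 1.05-fold (1.03 to 1.07), past counting error and below the fold criterion. *Fgfr1* lies on chromosome 8, 25513654-25575718, on the plus strand.

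*Fgfr2*, the receptor of *Fgf10* in limb and lung, was the most even at the level of the whole gene. The study reported a mutually exclusive exon of *Fgfr2* that differed between germ layers, and RPKM of the whole gene does not separate such forms. The RPKM of *Fgfr2* was 8.45 in endoderm (1838 reads), 15.0 in mesoderm (3203 reads) and 13.6 in epiblast (3024 reads). The ratio of mesoderm to endoderm was 1.78 (1.68 to 1.88), that of epiblast to endoderm 1.60 (1.51 to 1.70) and that of mesoderm to epiblast 1.11 (1.05 to 1.16), and no pair was called. Reads covered 90.6%, 87.4% and 87.3% of its length in endoderm, mesoderm and epiblast, and only 13.4%, 8.37% and 8.61% of the genes with RPKM>5 in the same libraries had a lower coverage. *Fgfr2* lies on chromosome 7, 130162451-133123350, on the minus strand, where a long transcript model reaches exons of *Ctbp2* on the same strand.

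*Fgfr3*, known for its restraint of bone growth, was lowest in epiblast. It was measured at RPKM 9.96 in endoderm (1762 reads), 15.1 in mesoderm (2625 reads) and 3.46 in epiblast (628 reads). Mesoderm was 4.37-fold (4.0 to 4.77) and endoderm 2.88-fold (2.62 to 3.16) above epiblast, and both were called. Mesoderm was 1.52-fold above endoderm (1.43 to 1.61), with no call. In mesoderm its interval (14.6 to 15.7) overlapped that of *Fgfr2* (14.5 to 15.5). *Fgfr3* lies on chromosome 5, 33721674-33737068.

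*Fgfr4*, the receptor of liver that *Fgf15* acts on in the adult, showed the largest ratio of the 10 genes. Its RPKM was 16.2 in endoderm (2118 reads), 0.374 in mesoderm (48 reads) and 0.141 in epiblast (19 reads). Endoderm was 43.3-fold above mesoderm (32.5 to 58.9) and 114.3-fold above epiblast (73.0 to 190.2), and both were called. Reads covered 98.5% of the gene in endoderm and 62.2% and 39% in mesoderm and epiblast. The endoderm marker *Sox17*, the gene most like *Fgfr4* over the libraries, was at RPKM 1.0 in mesoderm, 0.322 in epiblast and 39.5 in endoderm. The listed endoderm markers had 0.0375% (*Cubn*) to 51.3% (*Hhex*) of their endoderm level in mesoderm, where *Fgfr4* had 2.31%. In epiblast they had 0.015% (*Ttr*) to 8.32% (*Trh*), where *Fgfr4* had 0.875%. The part of endoderm cells in the *Fgfr4* reads of the other layers was not tested. *Fgfr4* lies on chromosome 13, 55152640-55168759.

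The 4 receptors summed to RPKM 107.7 in mesoderm and 90.7 in epiblast, against 57.4 in endoderm. *Fgfr1* made up 39.7% of the endoderm sum, 71.7% of the mesoderm sum and 81.1% of the epiblast sum, and *Fgfr2* held between 13.9% and 14.9% in all 3. *Fgfr4* took 28.2% in endoderm but 0.347% in mesoderm and 0.156% in epiblast, and *Fgfr3* took 17.4%, 14.1% and 3.82%. In endoderm the order was *Fgfr1*, *Fgfr4*, *Fgfr3* and *Fgfr2*, with intervals that did not overlap.

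**Figure D3:**
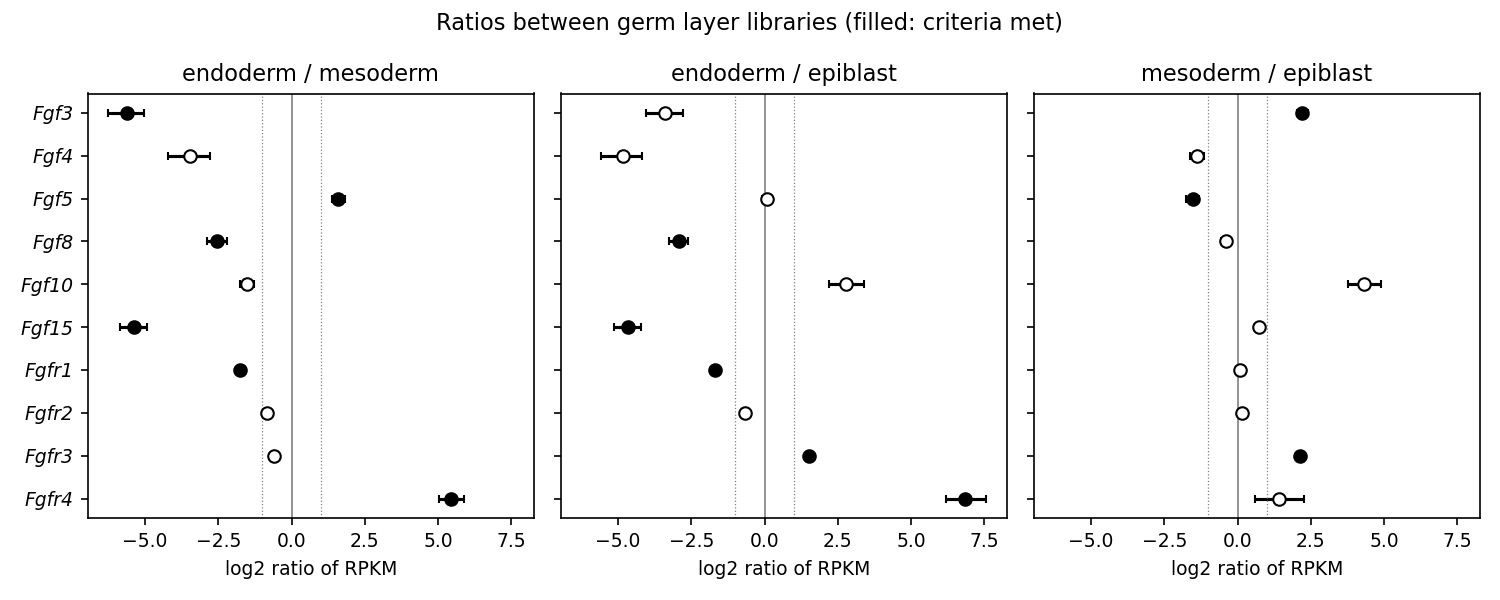
Log2 ratios of RPKM between germ layer libraries for the 10 genes, with exact 95% intervals from the reads; filled circles met the criteria, open circles did not, and dotted lines mark a 2-fold difference. Only *Fgf5* and *Fgfr4* lie to the right of 0 in the first panel, and the *Fgf5* point of endoderm over epiblast is the only one whose interval holds 0.

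Several of these genes overlap a gene on the other strand in GENCODE, which are *Gm16263* for *Fgf10*, *Gm26793* and *Gm39119* for *Fgf15*, *Gm16159* for *Fgfr1* and *G630022F23Rik* for *Fgfr3*. Whether strand was used in counting is not given in the sources used here, so reads of the partners may be among those of these genes. No such overlap was found for *Fgf3*, *Fgf4*, *Fgf5*, *Fgf8* or *Fgfr4*.

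For each of the 8 genes with RPKM>5 in any layer, the genes with the most similar distribution over the 3 libraries were taken from 9134 candidates at the same level. Likeness was the share of summed RPKM, in percentage points, that would have to move between libraries to match, and with only 3 libraries it is a coarse description. For *Fgf3* the nearest were *Mesp2* (1.02 points), *6230427J02Rik* (1.11) and *Cdh11* (1.24), where *Mesp2* is a segmentation factor of presomitic mesoderm and *Cdh11* a mesenchymal cadherin. For *Fgf15* they were *Wnt2b* (1.40), *Hoxb1* (1.93) and *Tceal6* (2.17). For *Fgf8* they were the alkaline phosphatase gene *Alpl* (0.524), *Timp1* (0.653) and the intermediate filament gene *Nes* (0.852). *Fgf5* lay nearest to the adhesion molecule gene *Bcam* (0.748), the planar polarity cadherin gene *Celsr1* (1.62) and *Klf9* (1.83).

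Among the receptors, *Fgfr4* was nearest to *Sox17* (0.214 points), the endoderm transcription factor used to check the dissection, then to *Lcp1* (0.369) and *Bcmo1* (0.529). *Fgfr3* was nearest to *Greb1l* (0.940), *Capn2* (1.02) and *Myc* (1.87). The nearest to *Fgfr1* were *Mxra8* (0.119), *Sh3bgrl* (0.170) and *Egln3* (0.551), and to *Fgfr2*, whose levels were the most even, *Ilf2* (0.315), *Pelo* (0.317) and *Hddc2* (0.321).

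Another 71 genes of the pathway were listed by role, of which 4 had no read in any library. Between endoderm and mesoderm 18 were called, 13 higher in endoderm and 5 in mesoderm, and the median log2 ratio of the list was -0.15. These were 18 of the 43 listed genes with RPKM>5 in the pair, beside 23.0% of all such genes. Between endoderm and epiblast 18 of 43 such genes were called, 12 higher in endoderm and 6 in epiblast, beside 24.6% of all genes at that level, and the list had a median of 0.04. Between mesoderm and epiblast 6 of 40 were called, 3 each way, beside 10.3%, with a median of 0.09. Of the 16 remaining ligand genes, only *Fgf13*, an intracellular homologue that is not secreted, passed RPKM>5 and so could be called. It was called in each pair with endoderm. Its RPKM of 1.39, 8.60 and 6.31 in endoderm, mesoderm and epiblast was 6.19-fold higher in mesoderm (5.19 to 7.43) and 4.54-fold higher in epiblast (3.79 to 5.47) than in endoderm.

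Of the 8 co-receptor and binding protein genes, 4 passed RPKM>5 in each endoderm pair, where 3 were called against mesoderm (23.0% of all genes at that level were) and 4 against epiblast (24.6%), each higher in endoderm. The list summed to RPKM 82.4, 20.7 and 15.0 in endoderm, mesoderm and epiblast. *Klb*, the co-receptor through which *Fgf15* engages *Fgfr4*, had 2279 reads in endoderm (RPKM 15.9) and 0 in both other libraries, where a count of 0 allows up to 3 reads. The endoderm level was therefore at least 745-fold higher than that of mesoderm and at least 778.8-fold higher than that of epiblast. The RPKM of *Klb* and *Fgfr4* in endoderm was thus 15.9 and 16.2, whereas *Fgf15* itself was 0.557 there. *Fgfbp1*, which releases FGFs from the matrix, was at 18.3, 0.827 and 1.29, or 22.1-fold and 14.2-fold higher in endoderm. *Flrt3*, a membrane protein that binds FGF receptors, was at 35.0, 7.35 and 9.22. *Fgfrl1*, a receptor without a kinase domain, was at 12.0, 8.71 and 2.66, with calls of endoderm (4.50-fold) and of mesoderm (3.27-fold) over epiblast.

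**Figure D4:**
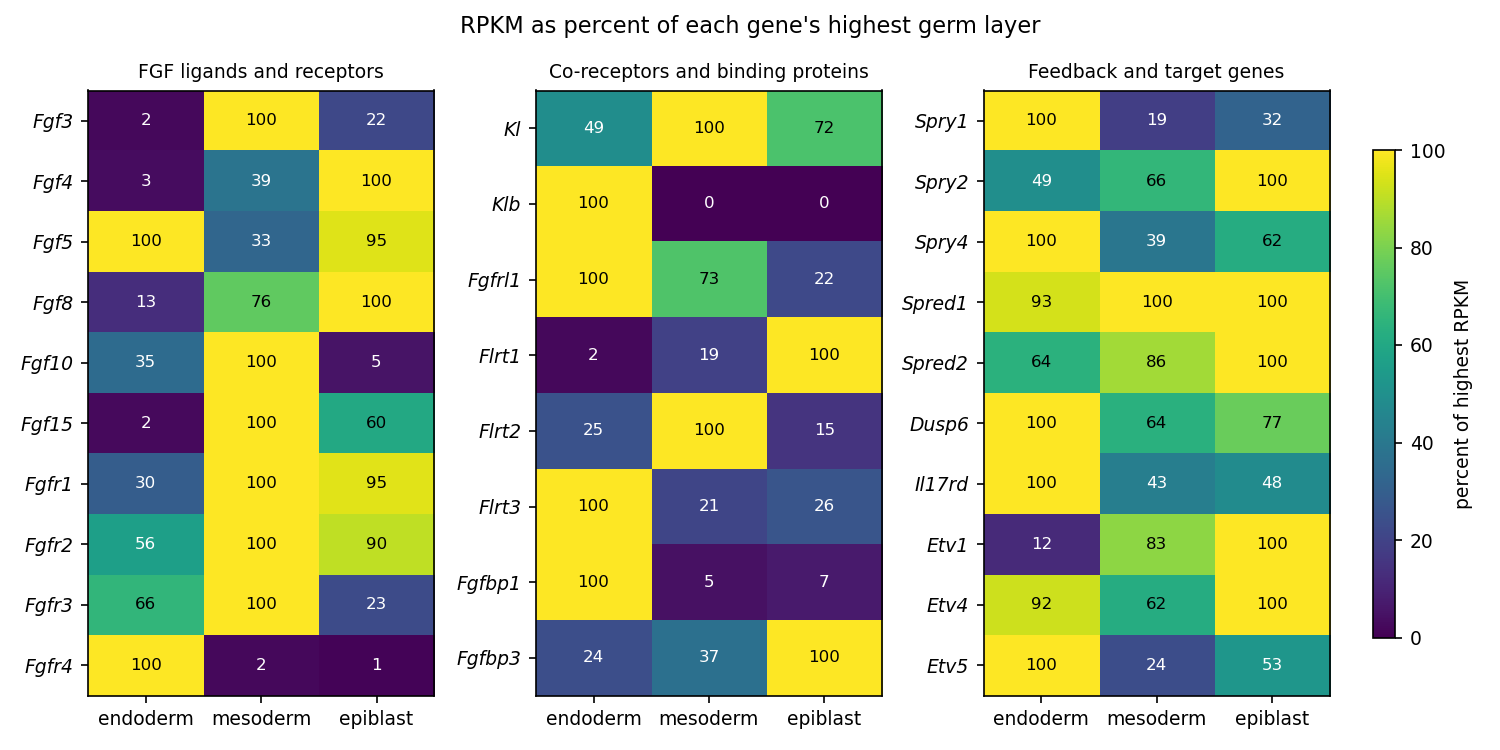
RPKM of each gene as a percent of its highest germ layer library for the 10 ligands and receptors, 8 co-receptor and binding protein genes and 10 feedback and target genes; brighter is higher and the printed number is the percent. *Fgfr4*, *Klb* and *Fgfbp1* print 100 in endoderm and 0 to 7 elsewhere, while *Fgf3*, *Fgf4* and *Fgf15* print 2 or 3 in endoderm.

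Of the 10 receptor adaptors, 8 passed RPKM>5 in each pair, and 1 of these 8 was called each time. Over all genes at that level the share called was 23.0% and 24.6% for endoderm against mesoderm and epiblast. It was 10.3% for the remaining pair. The adaptor called was always *Gab1*, a docking protein. Its RPKM fell from 34.2 in endoderm to 11.6 in mesoderm and 4.61 in epiblast, with calls in all 3 pairs (2.94-fold, 7.42-fold and 2.52-fold). *Grb2*, the adaptor that recruits the Ras exchange factor, had the highest single level of the list, 34.8 in mesoderm. It was at 30.5 in endoderm, below *Gab1*, and at 32.1 in epiblast. Of 27 heparan sulfate genes, 21 passed RPKM>5 between endoderm and mesoderm, and 9 of these were called (5 higher in endoderm), beside 23.0% of all genes at that level. In the pair of endoderm and epiblast 8 of 20 were called (5 higher in endoderm), beside 24.6%, and in that of mesoderm and epiblast 3 of 21 (1 higher in mesoderm), beside 10.3%. The proteoglycan *Gpc3* had the highest level, at RPKM 763.7, 255.5 and 80.0 in the same order of layers, and was called in all 3 pairs. *Sdc4*, another cell surface proteoglycan, was at 24.5, 2.66 and 5.58, and *Gpc1* went the other way at 8.10, 32.4 and 29.6. The sulfotransferase gene *Hs6st2* was at 1.22, 8.76 and 4.60, called higher in mesoderm than in endoderm.

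Of 10 feedback and target genes of FGF signalling, 4 of the 9 that passed RPKM>5 were called between endoderm and mesoderm, all higher in endoderm, beside 23.0% of all genes at that level. Against epiblast, 4 of 10 were called in endoderm, 2 higher and 2 lower, beside 24.6%, and 1 of 8 in mesoderm, which was lower, beside 10.3%. *Etv5*, an ETS factor, had RPKM 56.3, 13.4 and 29.6 in endoderm, mesoderm and epiblast, and *Spry1*, an inhibitor of the pathway, had 11.7, 2.18 and 3.74. *Spry4* was at 8.98, 3.54 and 5.55, and *Etv1* was at 0.677, 4.67 and 5.61, called higher in epiblast than in endoderm. The list summed to 182.8, 118.7 and 162.1, with mesoderm lowest, whereas the summed ligand and receptor RPKM was lowest in endoderm.

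The layers carried their defining markers. *Sox17* and *Foxa2* were highest in endoderm (39.5 and 44.0), *Foxf1* (listed as *Foxf1a*) and *Kdr* in mesoderm (33.2 and 40.8) and *Sox2* in epiblast (42.7). *Pax6* was near 0 in each library, with 0.693 at most. It was also highest in epiblast, with 94 reads against 2 in endoderm and 8 in mesoderm. All 6 visceral endoderm markers were highest in endoderm and summed to RPKM 4983 there, against 7.36 in mesoderm and 4.81 in epiblast, and the definitive endoderm list summed to 474.5, 59.0 and 25.5. Beside *Fgfr4* and *Klb*, the part of visceral endoderm cells in the endoderm values was not tested. All 5 primitive streak markers were highest in epiblast, with sums of 109.1, 106.3 and 315.5. In endoderm *Fst* had 4.64% and *Mixl1* 10.2% of the epiblast level, below the 13.1% of *Fgf8*. Above it were *T* with 41.0%, *Wnt3* with 51.4% and *Eomes* with 65.6%. All 3 nascent mesoderm markers were highest in mesoderm, with sums of 10.4, 156.5 and 70.6. Of 8 markers of extra-embryonic ectoderm and trophoblast 6 had reads, with *Tpbpa* and *Prl3d1* at 0 and sums of 45.9, 29.3 and 45.4. The members behind these sums differed. Highest in endoderm were 2, *Plac1* (19.9, 6.25 and 0.569) and *Esx1* (7.11, 0.0606 and 0.130). Highest in epiblast were 4, among them *Cdx2* (18.4, 20.9 and 37.1) and *Tfap2c* (0.143, 0.807 and 5.65). Of 3 decidua markers only *Des* had reads, with *Prl8a2* and *Prl3c1* at 0, and of 4 primitive erythroid markers *Hba-x* and *Hbb-y* were at 0. The sums of the decidua list were 0.311, 4.95 and 2.71, and those of the erythroid list 3.27, 3.98 and 0.661. In endoderm and epiblast the erythroid sum was *Gata1* alone, as *Hbb-bh1* had 37 reads in mesoderm and 0 in the other libraries. The part of cells of these lists in the FGF values was not tested.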

How the data were processed

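The authors sequenced paired ends of RNA from the 3 germ layers, as 1 library per layer. The authors deposited, per gene, the count of uniquely mapped reads without normalization, the gene length, the coverage as a percent of that length, and the RPKM. Recomputing this RPKM from the reads, the length and the total of reads on genes gave the deposited values. The submitters' processing notes name TopHat, mm9 and mm10 without a role. The study's methods give TopHat with GRCm38 for splicing, and the aligner and counting program of the gene tables are not given in the sources used here. Genes absent from a library's table were given 0 reads, replaced by a floor of 3 in folds.

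In each pair, two-sided exact Audic and Claverie tests on the counts were adjusted by Benjamini-Hochberg over all genes with a read. A quasi-likelihood fit in edgeR needs replicates and could not be run. Its exact test was an alternative, with the biological coefficient of variation assumed to be 0.2 or 0.4. The other alternatives were median of ratios, TMM or upper quartile scaling, RPKM>1, RPKM>10 or no minimum, Fold Change>4 or 1.5, a pseudocount of 1 and no FDR criterion. RPKM intervals are exact Poisson, and ratio intervals exact binomial. The calling steps were tested on simulated counts, which cannot show the spread between embryos.

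The members and lists were chosen with earlier results of these data known. Genes named were the 10 members, the markers, from each list up to 4 called genes with the largest fold and the gene with the highest RPKM, the 3 genes most like each member with RPKM>5, and the neighbours on chromosome 7. Positions are from GENCODE M21. Tools were R 4.3.3 with edgeR 4.0.16, and Python 3.11.15 with SciPy 1.17.1, numpy 2.4.6, pandas 2.3.3 and matplotlib 3.10.9.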

Additional observations from a re-analysis of the deposited data

How the results depend on the processing

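With 1 library per layer, no library could be left out and no spread between embryos is known, and pooled RNA hides it. No paired analysis was possible because each layer is 1 library. Of 360 single ratios recomputed for the 10 genes under the 12 alternatives, 320 kept their side of the criteria, 20 gained a call, 20 lost one, and 0 called ratios changed sign. The uncalled log2 ratio of *Fgf5* for endoderm over epiblast went from 0.07 to -0.05 with upper quartile scaling, and every other ratio kept its direction. Scaling by the median of ratios raised endoderm over the other layers by 0.11 on the log2 scale for all genes, TMM did the same, and upper quartile scaling lowered endoderm over epiblast by 0.12. The calls of *Fgf15* and *Fgfr4* against endoderm and of *Fgf3* between endoderm and mesoderm were kept under all 12. Those of *Fgf5* and that of *Fgfr3* between endoderm and epiblast were lost under RPKM>10, Fold Change>4 and both assumed coefficients. Those of *Fgfr1* were lost under Fold Change>4 and a coefficient of 0.4, and both calls of *Fgf8* and those of *Fgf3* and *Fgfr3* over epiblast in mesoderm were lost only under a coefficient of 0.4. *Fgf3* between endoderm and epiblast was called after upper quartile scaling. For the 10 genes, a coefficient of 0.4 left 3 calls for endoderm against mesoderm, 2 for endoderm against epiblast and 0 for mesoderm against epiblast. RPKM>1 gave 8 calls for endoderm against epiblast and 5 for mesoderm against epiblast, no minimum gave 8 and 6, and Fold Change>4 gave 3 between endoderm and epiblast. For the other 71 pathway genes, no minimum gave 30, 30 and 14 calls in the 3 pairs, Fold Change>4 gave 9, 8 and 0, and a coefficient of 0.4 gave 2, 1 and 0. Between mesoderm and epiblast, RPKM>1 gave 10 for these genes, Fold Change>1.5 gave 14 and a coefficient of 0.2 gave 2. The RPKM and fold settings move the criteria by construction, and an assumed coefficient widens the error of the test.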

Other observations

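Ligands outside the 10 genes that stayed below the criteria are named here after their values were seen. *Fgf17*, a close relative of *Fgf8*, had RPKM 0.114 in endoderm (8 reads), 0.522 in mesoderm (36 reads) and 2.65 in epiblast (191 reads), and epiblast was 5.08-fold above mesoderm (interval 3.54 to 7.46) and 23.3-fold above endoderm (11.6 to 54.7). *Fgf16* had 122 endoderm, 8 mesoderm and 6 epiblast reads, so that endoderm was 15.0-fold above mesoderm (7.35 to 35.4) and 20.8-fold above epiblast (9.31 to 57.9), although its RPKM there was only 0.963. *Fgf9* had 11, 3 and 55 reads in the same order, and *Fgf14* had 62, 8 and 103.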
